A study of Homo sapiens with 6 samples.

Results

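The genes described here encode the gp130 cytokines IL6, IL11, LIF and CLCF1, and the receptor chains IL6ST (gp130), OSMR, LIFR and IL11RA of this family. They also encode the transcription factor STAT3 and its feedback inhibitor SOCS3. They were chosen by pathway membership together with their measured differences between the compounds in these same libraries, and were found by gene name. Each of the 10 names matched 1 of 60675 gene rows of the deposited table, and all 10 had enough counts to be tested. The libraries came from HT1080, an established human fibrosarcoma line, with genotype WT in every library. Cells were given SW-138 at 1 µM for 48 h (3 libraries) or SW-113 at 1 µM for 48 h (3 libraries), in a study of how selective inhibitors of the lysine deacetylase KDAC6 (HDAC6) are. No vehicle group is among the samples analysed here, so a higher level with SW-138 cannot be told apart from a lower level with SW-113. Both compounds are known here only by code names. Since separate cultures are not mentioned in the labels, the spread behind each p-value may be technical.

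Cytokines of this family are secreted proteins that signal through the shared receptor chain gp130. IL6 and IL11 first bind a receptor chain of their own, IL6R or IL11RA, and then bring gp130 molecules together. LIF joins gp130 to LIFR, and CLCF1 acts through CNTFR, gp130 and LIFR. Bound receptors activate JAK kinases, which phosphorylate STAT3, and STAT3 in turn switches on SOCS3, which blocks the receptor. In fibroblasts and sarcoma cells these cytokines are known as products of inflammatory and growth factor signalling, and IL11 in particular of TGF-beta signalling.

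Among the 10 genes, the mRNAs of the cytokines IL6 and IL11 were higher in cells given SW-138 than in cells given SW-113, by 1.61-fold and 1.46-fold. LIF lay at overlapping levels with both compounds. CLCF1, the receptor chains, STAT3 and SOCS3 had log2 fold changes between -0.17 and 0.17. Because results of this contrast were known when the genes were chosen, the differences of the 10 are descriptions and carry no p-values. In RNA from whole cultures, fewer cells making a transcript and less of it per cell cannot be told apart.

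Total expected counts ranged from 32771670 to 40527236 in the SW-138 libraries and from 39249722 to 50871623 in the SW-113 libraries. One library, SW-138 replicate 2, scored 39.08 on a leading principal component that held 32.2% of the variance. The other SW-138 libraries scored 3.54 and 5.88 and the SW-113 libraries -24.05 to -10.15, with no overlap between the compounds. Results without SW-138 replicate 2 are given beside the main ones. The signal recognition particle RNA RN7SL1 took 2.14% to 2.88% of the counts with SW-138 and 3.72% to 4.40% with SW-113. Of 10 mesenchymal marker genes 6 were at a mean of at least 1 CPM (counts per 1e6 library counts, scaled by TMM factors), VIM, FN1, CD44, SPARC, MMP14 and TWIST1, while COL1A1, COL5A2, NT5E and S100A4 were below it. The 15 epithelial, hematopoietic and endothelial markers were all below 1 CPM on average, with sums per class of 0.144 to 1.58 CPM a library with SW-138 and 0.369 to 1.51 CPM with SW-113.

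The start regions of IL6 and IL11 are shown because these are the 2 genes that differed most. The first sequence covers chr7:22726950-22727146 (GRCh38.p14, plus strand) and the second chr19:55370464-55370713 (minus strand), both from RefSeq and written 5′ to 3′. The IL11 stretch ends at the base before the RefSeq start, and the IL6 stretch ends upstream of it. Capitals mark, from left to right, a short CRE motif, a C/EBP motif and an NF-kB motif in IL6, and an AP-1 motif in IL11.
IL6: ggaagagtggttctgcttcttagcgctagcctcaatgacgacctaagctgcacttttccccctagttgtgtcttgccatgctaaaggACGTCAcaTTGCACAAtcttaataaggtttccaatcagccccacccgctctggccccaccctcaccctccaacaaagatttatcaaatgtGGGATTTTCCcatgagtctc
IL11: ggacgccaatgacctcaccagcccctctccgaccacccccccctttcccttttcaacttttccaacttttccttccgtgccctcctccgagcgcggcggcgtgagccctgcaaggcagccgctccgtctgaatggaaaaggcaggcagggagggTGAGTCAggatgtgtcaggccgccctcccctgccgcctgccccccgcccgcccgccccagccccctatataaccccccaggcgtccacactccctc

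RefSeq windows of 300 bases, 250 before and 50 after a start, were available for 8 of the 10 genes, 12 windows in all, and not for LIF and CLCF1. Motifs were searched on both strands. The NF-kB motif, matched in IL6 as GGGATTTTCC with its first base at -73 from the start, was in 0.56% of 35116 such windows of all genes and in no other window of the 10 genes. The AP-1 motif TGANTCA lay at -96 in IL11 and at position 4 in OSMR, and was in 7.71% of all windows. The C/EBP motif TTGCNNAA, at -155 in IL6, was also in windows of OSMR and LIFR and in 10.5% of all windows. The short CRE motif ACGTCA, at -163 in IL6, was in 7.98% of all windows, and the whole CRE TGACGTCA, in 1.85% of them, was in none of the 12. The STAT motif TTCNNNGAA was in 2 LIFR windows and in 7.66% of all windows. These matches describe letters in the windows and not binding.

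AU-rich pentamers (ATTTA) in the 3′ untranslated region are binding sites of proteins that speed the decay of cytokine mRNAs, such as those of the ZFP36 family. For the 3 cytokines in question, 1 stretch of 30 bases is shown with the pentamers in capitals, as DNA letters of the GENCODE 29 transcript, at bases 124 to 153 of the region in IL6, 27 to 56 in IL11 and 3100 to 3129 in LIF.
IL6: ttttaattatttttaATTTAttaatATTTA
IL11: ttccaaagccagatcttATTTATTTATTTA
LIF: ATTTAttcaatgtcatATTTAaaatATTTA

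Counting overlapping copies, IL6 held 6 ATTTA in 429 bases, a density of 13.99 per kilobase, and 0.30% of 12574 tested protein-coding genes were at least as dense. IL11 held 9 in 1618 bases (5.56 per kilobase, with 7.36% of genes at least as dense) and LIF 7 in 3204 bases (2.19 per kilobase, with 42.1%). The median over these genes was 1.74 per kilobase. The nonamer ATTTATTTA was present in IL11, CLCF1 and OSMR, and in 7.28% of these genes. IL11RA held no ATTTA in 383 bases.

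IL6 (ENSG00000136244, chromosome 7, 22725884 to 22732002, GRCh38) encodes a cytokine of inflammation and the acute-phase response. It had 4.48, 4.26 and 3.69 CPM in SW-138 replicates 1, 2 and 3, against 2.44, 2.56 and 2.70 CPM in SW-113 replicates 1, 2 and 3. Every SW-138 library lay above every SW-113 library. The means were 4.15 ± 0.408 CPM in SW-138 cells, against 2.57 ± 0.131 CPM in SW-113 cells (SD, n = 3 each), a log2 fold change of 0.69 ± 0.14 (SE). The estimate rested on 136 to 187 counts a library with SW-138 and 94 to 127 with SW-113.

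IL11 (ENSG00000095752, chromosome 19, 55364389 to 55370463) had 28.3, 26.6 and 31.5 CPM in the SW-138 replicates, against 20.01, 20.5 and 18.6 CPM in the SW-113 replicates. Here too the groups did not overlap. The means were 28.8 ± 2.49 CPM in SW-138 cells, against 19.7 ± 0.955 CPM in SW-113 cells (SD, n = 3 each), a log2 fold change of 0.55 ± 0.08 (SE). Within a compound the IL6 and IL11 libraries ran in different orders: SW-138 replicate 3 was the lowest of its group for IL6 and the highest for IL11.

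LIF (ENSG00000128342, chromosome 22, 30240447 to 30246851), which keeps mouse embryonic stem cells undifferentiated in culture, had 39.5, 34.8 and 44.97 CPM in the SW-138 replicates, against 45.5, 36.1 and 40.6 CPM in the SW-113 replicates. The groups overlapped, and replicate 2 was the lowest library with both compounds. The means were 39.7 ± 5.09 CPM in SW-138 cells, against 40.8 ± 4.70 CPM in SW-113 cells (SD, n = 3 each). The log2 fold change was -0.03, with a 95% interval of -0.26 to 0.19, and the spread between replicates of one compound was larger than the difference. The sign turned to 0.03 with scaling by total count alone and to 0.05 without SW-138 replicate 2 or without SW-113 replicate 1.

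CLCF1 (ENSG00000175505, chromosome 11, 67364168 to 67374177) had 4.65, 4.20 and 4.10 CPM with SW-138, against 4.73, 4.80 and 4.60 CPM with SW-113. The highest SW-138 library lay above the lowest SW-113 library, so the groups overlapped. The log2 fold change was -0.12, with a 95% interval of -0.37 to 0.13.

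**Figure D1:**
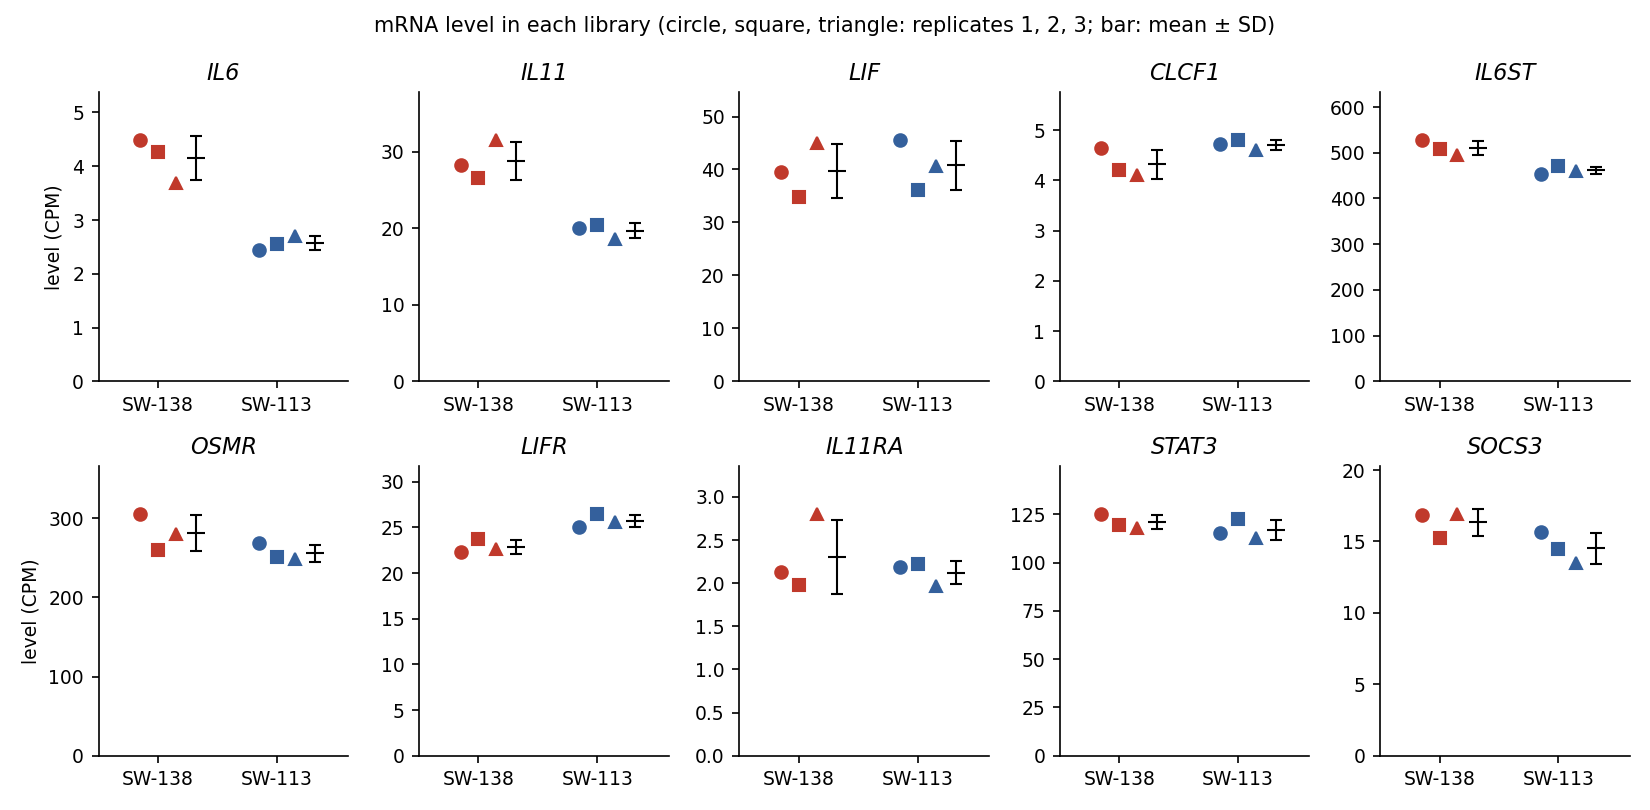
Level of each of the 10 genes in CPM (vertical axes start at 0) in the 3 libraries of SW-138 (red) and SW-113 (blue), with the mean and SD in black. IL6 and IL11 lie at 3.69 to 4.48 CPM and 26.6 to 31.5 CPM with SW-138, above all SW-113 libraries, while the LIF libraries of both compounds overlap.

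Among the receptor chains, IL6ST (ENSG00000134352, chromosome 5, 55935095 to 55994993), which encodes gp130 itself, was at 527, 508 and 496 CPM with SW-138 and at 454, 471 and 459.5 CPM with SW-113. Its groups did not overlap, and the log2 fold change was small, 0.15 ± 0.04 (SE), with an unadjusted 95% interval of 0.05 to 0.24. It was past an adjusted p threshold of 0.05, over all tested genes, with scaling by total count alone (0.21) and was at 0.06 once trends with the length and GC content of transcripts were removed. LIFR (ENSG00000113594, chromosome 5, 38474963 to 38608354), the LIF receptor chain, ran the other way without overlap, at 22.3, 23.8 and 22.6 CPM with SW-138 and 25.1, 26.4 and 25.6 CPM with SW-113. Its log2 fold change was -0.17 ± 0.06 (SE), with an unadjusted 95% interval of -0.30 to -0.035. The LIFR estimate moved to -0.26, past the threshold, with those trends removed.

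OSMR (ENSG00000145623, chromosome 5, 38845858 to 38945596), the oncostatin M receptor chain, was at 305, 259.9 and 280.1 CPM with SW-138 and 268, 251 and 248 CPM with SW-113. The groups overlapped, and the log2 fold change was 0.14 ± 0.06 (SE), with an unadjusted 95% interval of 0.0003 to 0.276. IL11RA (ENSG00000137070, chromosome 9, 34650702 to 34661892), the IL11 receptor chain, was at 2.13, 1.98 and 2.80 CPM with SW-138 and 2.18, 2.22 and 1.97 CPM with SW-113. Its log2 fold change of 0.12 had a 95% interval of -0.27 to 0.51 and was -0.04 without SW-138 replicate 3, which was the highest library. IL11RA shares 334 exonic bases with GALT on the same strand, and OSMR shares 229 with RICTOR on the opposite strand, where reads may not be separated because the strand setting is unknown. With a mean of 323 counts for GALT and 88.9 for IL11RA, the IL11RA values are the less certain.

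STAT3 (ENSG00000168610, chromosome 17, 42313324 to 42388568), the factor activated by all these receptors, was at 125, 119.7 and 118 CPM with SW-138 and 116, 123 and 113 CPM with SW-113. The groups overlapped, and the log2 fold change of 0.05 had a 95% interval of -0.07 to 0.16. SOCS3 (ENSG00000184557, chromosome 17, 78356778 to 78360077), a direct STAT3 target that ends the signal, was at 16.9, 15.3 and 16.9 CPM with SW-138 and 15.6, 14.4 and 13.5 CPM with SW-113. SW-138 replicate 2 lay below SW-113 replicate 1, so the groups overlapped here too. Its log2 fold change was 0.17, with a 95% interval of -0.01 to 0.35. Phosphorylated STAT3 and secreted cytokine protein were not measured.

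With edgeR's quasi-likelihood test over all genes and Benjamini-Hochberg adjustment at 0.05, 2 of the 10 genes (IL6 and IL11) were past the threshold as higher and 0 as lower, where 6.82% of 16905 tested genes passed in either direction, 2.76% as higher and 4.06% as lower. Over all genes that was 466 higher and 687 lower, and 923 higher and 377 lower with scaling by total count alone. Of the 10 genes, 3 were higher and 1 was lower at an unadjusted p under 0.05, where 10% of all tested genes were higher and 12.3% lower. DESeq2 and limma-voom each called 2 of the 10 higher and 0 lower, where DESeq2 called 4.67% of genes with an adjusted p higher and 5.53% lower, and limma-voom 2.74% and 3.93%. Groups did not overlap in 4 of the 10 genes, against 27.9% of all tested genes. The median log2 fold change was 0.13 over the 10 genes and 0.01 over all tested genes. Since the contrast was known when the genes were chosen, nothing is read from these counts. IL11 stayed past the threshold in each of the 6 fits that left out a library (0.48 to 0.60). IL6 kept its direction (0.63 to 0.77) but was not past the threshold without SW-138 replicate 1 (0.63) or without SW-113 replicate 1 (0.66), 2 (0.69) or 3 (0.73).

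**Figure D2:**
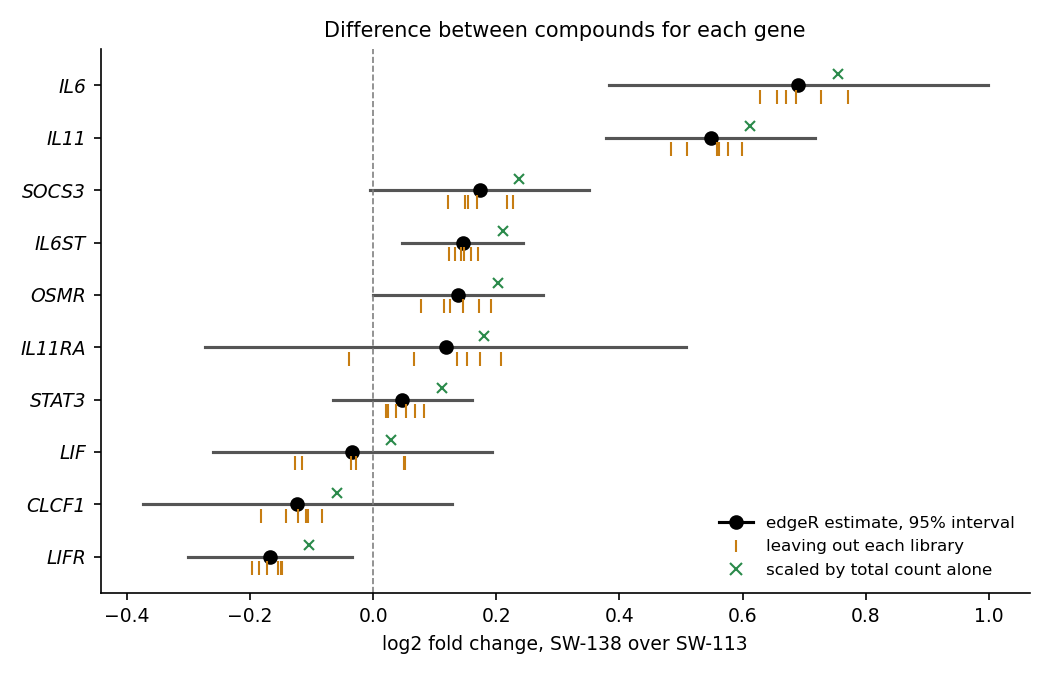
Log2 fold change of SW-138 over SW-113 for each gene, with the unadjusted 95% interval (black), the 6 fits that each left out a library (orange ticks) and scaling by total count alone (green crosses). IL6 (0.69) and IL11 (0.55) lie apart from the other 8 genes, which range from -0.17 to 0.17, and LIF and IL11RA have ticks on both sides of 0.

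Leaving out SW-138 replicate 2 gave log2 fold changes of 0.67 for IL6 and 0.60 for IL11. Leaving out mitochondrial and stable noncoding RNAs before scaling, RN7SL1 among them, gave 0.69 and 0.55. Genes of similar transcript length (decile 2 of 10 for IL6, decile 4 for IL11) had median log2 fold changes of -0.08 and -0.02. Both differences were as large with length and GC trends removed, at 0.71 and 0.56.

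Ratios of counts within a library do not depend on scaling. They were chosen after the values were seen. The IL11 to LIF ratio was 0.717, 0.765 and 0.701 in the SW-138 replicates, against 0.439, 0.567 and 0.459 in the SW-113 replicates. The IL6 to LIF ratio was 0.114, 0.122 and 0.0821 with SW-138, against 0.0537, 0.0709 and 0.0665 with SW-113. In both ratios every SW-138 library lay above every SW-113 library. The IL6 to IL11 ratio overlapped, at 0.145 ± 0.0243 with SW-138 and 0.131 ± 0.0125 with SW-113 (SD, n = 3 each). Among the receptor chains the OSMR to LIFR ratio was 12.3 ± 1.36 with SW-138 and 9.97 ± 0.626 with SW-113, again without overlap.

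**Figure D3:**
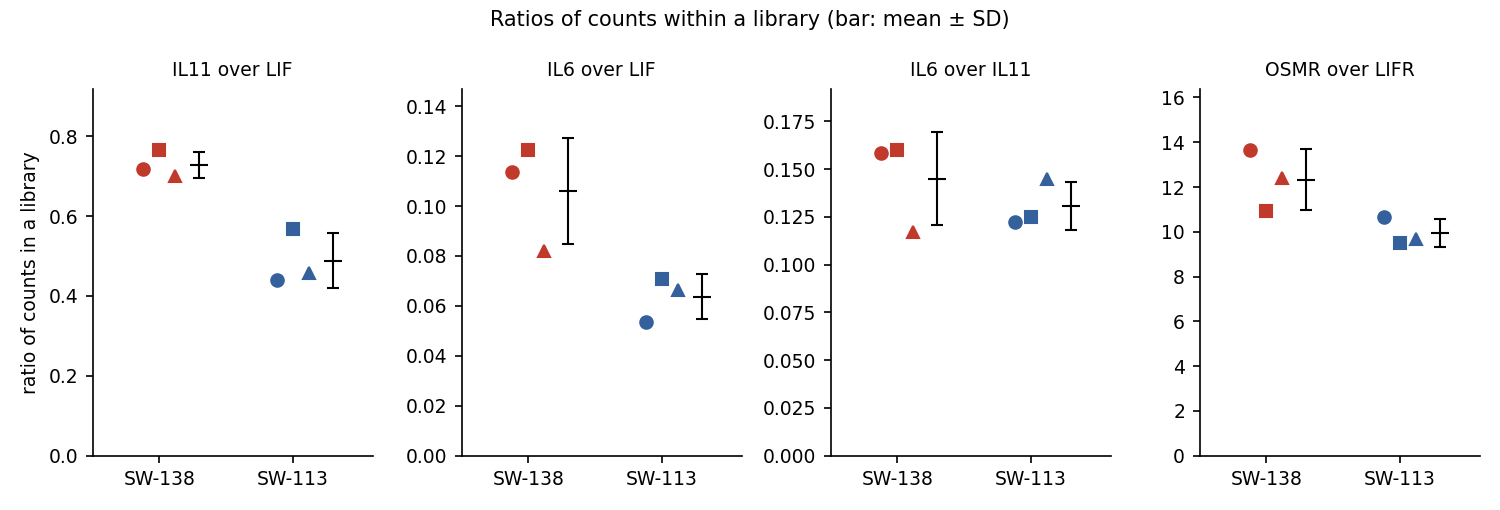
Ratios of expected counts between 2 genes in the same library, for SW-138 (red) and SW-113 (blue), with the mean and SD in black and axes from 0. The IL11 to LIF ratio is 0.701 to 0.765 with SW-138 and 0.439 to 0.567 with SW-113, while the IL6 to IL11 ratios overlap.

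Levels were set in order per kilobase of transcript (the longest principal transcript of each gene in GENCODE 29), as CPM per kilobase. IL6ST came first, at 56.4 ± 1.75 with SW-138 and 50.9 ± 0.940 with SW-113, followed by OSMR at 50.8 ± 4.05 with SW-138 and 46.2 ± 1.94 with SW-113. These neighbours overlapped with SW-138 and not with SW-113. STAT3 followed at 23.96 ± 0.711 with SW-138 and 23.2 ± 1.03 with SW-113. IL11 and LIF changed places. IL11 was at 12.6 ± 1.09 with SW-138 and 8.64 ± 0.419 with SW-113, and LIF at 10.01 ± 1.28 with SW-138 and 10.3 ± 1.19 with SW-113. Libraries of IL11 lay above the LIF libraries with SW-138 (11.7 to 13.8 against 8.77 to 11.3) and below them with SW-113 (8.17 to 8.97 against 9.10 to 11.5). With the length of all annotated exons in place of the transcript the SW-138 means were closer, 10.8 for IL11 and 10.01 for LIF, in the same order. The SW-138 libraries of IL11 and LIF then overlapped.

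SOCS3 was next, at 5.98 ± 0.342 with SW-138 and 5.31 ± 0.398 with SW-113. IL6 was at 2.71 ± 0.267 with SW-138 and 1.68 ± 0.0857 with SW-113. CLCF1 was at 2.34 ± 0.159 with SW-138 and 2.55 ± 0.0558 with SW-113, and LIFR at 2.27 ± 0.0757 with SW-138 and 2.55 ± 0.0660 with SW-113. With SW-138 the IL6 and CLCF1 libraries overlapped, as did the CLCF1 and LIFR libraries. With SW-113 IL6 lay below both, without overlap. With the length of all annotated exons the SW-138 means of IL6 and CLCF1 stood in the other order, at 2.004 and 2.19. IL11RA came last with both compounds, at 0.766 ± 0.144 with SW-138 and 0.706 ± 0.0453 with SW-113.

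Other ligands and receptors listed with the family were mostly scarce. Of 11 genes listed, 6 were tested and none passed (edgeR, DESeq2 and limma-voom each called 0, and 0 were at an unadjusted p under 0.05). Over all tested genes edgeR called 2.76% higher and 4.06% lower, and 10% and 12.3% were so at an unadjusted p under 0.05. The list's median log2 fold change was 0.21, against 0.01 over all tested genes. IL6R, the IL6 receptor chain, was at 1.21 CPM per kilobase with SW-138 and 1.09 with SW-113. IL31RA, which pairs with OSMR and not with gp130 for IL31, was the most abundant of the 11. It was at 12.7 with SW-138 and 11.9 with SW-113 on the same scale. CNTFR, through which CLCF1 acts, had 2 counts over the 6 libraries, and the ligands OSM and CTF1 had 6 and 10. IL27 and IL31 had 0 of 241736214 counts, which allows up to 0.0124 CPM over the 6 libraries together. Floors cover counting error only.

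**Figure D4:**
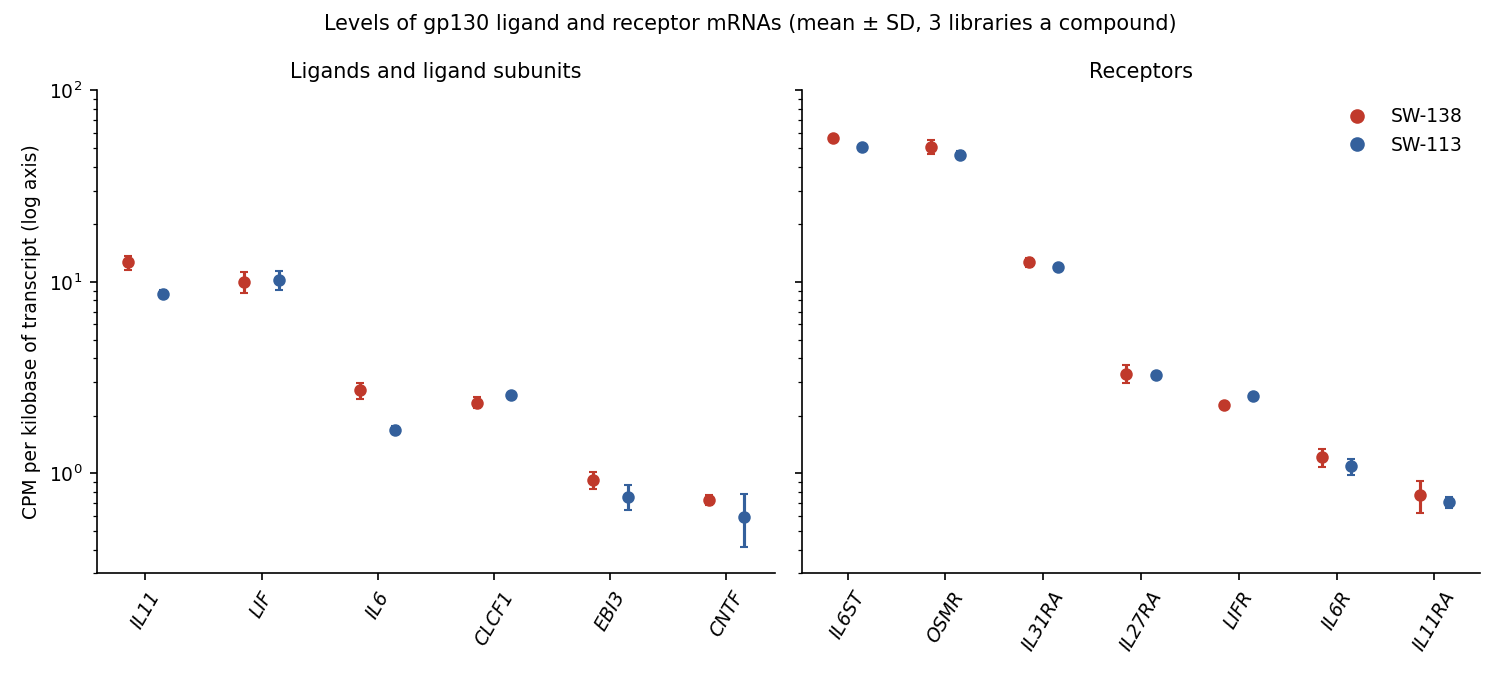
CPM per kilobase of transcript (log axis, mean ± SD of 3 libraries) for gp130 ligands with their subunits and for receptor chains, SW-138 in red and SW-113 in blue. IL6ST and OSMR stand highest among the receptors, and IL11 lies above LIF with SW-138 and below it with SW-113. IL27, IL31, OSM, CTF1 and CNTFR, with 0 to 10 counts in all, are not drawn.

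As all 6 lists were compiled with results of this contrast known, their counts are read only beside the share over all tested genes. Values after ± are SDs of 3 libraries for CPM and standard errors for log2 fold changes in the lists that follow. Of 28 JAK kinases, other STATs and inhibitors of the pathway 26 were tested, and 1 passed as higher and 0 as lower, where 2.76% of all tested genes passed as higher and 4.06% as lower. In this list 3 were higher and 4 lower at an unadjusted p under 0.05, where 10% and 12.3% of all tested genes were, and DESeq2 and limma-voom each called 1 higher and 0 lower. The gene was SOCS5, a member of the SOCS family, at 106 ± 4.44 CPM in SW-138 cells, against 91.3 ± 2.85 CPM in SW-113 cells (0.21 ± 0.05, SE; edgeR, Benjamini-Hochberg adjusted p = 0.0398). Its call was lost whichever library was left out (0.18 to 0.24) and with length and GC trends removed (0.14). Without SW-138 replicate 2 the list held 0 higher and 1 lower. The list's median was 0.02, against 0.01 over all tested genes.

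Of 34 genes commonly listed as STAT3 targets 26 were tested, and 4 passed as higher, 1 passed as lower and 21 did not pass, where 2.76% of all tested genes passed as higher and 4.06% as lower. The list's median was 0.04, against 0.01 over all tested genes. NFIL3, a bZIP transcription factor, was at 60.3 ± 2.11 CPM in SW-138 cells, against 45.4 ± 1.67 CPM in SW-113 cells (0.41 ± 0.05, SE; edgeR, Benjamini-Hochberg adjusted p = 0.00308). CCND1, which encodes cyclin D1, was higher by 0.40 ± 0.05 and the stress gene GADD45B by 0.52 ± 0.10 on the log2 scale (edgeR, Benjamini-Hochberg adjusted p = 0.00372 and 0.0109). TWIST1, a mesenchymal transcription factor, was lower, at 7.50 ± 0.0825 CPM in SW-138 cells, against 10.1 ± 0.359 CPM in SW-113 cells (-0.42 ± 0.08, SE; edgeR, Benjamini-Hochberg adjusted p = 0.0126). BCL6, a transcriptional repressor named after its values were seen, completed the 5 at 0.24 ± 0.06. Several of these targets answer to other pathways too. GADD45B did not pass without SW-113 replicate 2 (0.46), and TWIST1 without SW-113 replicate 3 (-0.39). BCL6 passed in 1 of the 6 fits that left out a library, the fit without SW-138 replicate 2. Without that replicate 7 of the list were higher and 1 was lower, and without SW-113 replicate 2 or 3 there were 3 in all. The acute-phase gene CRP and the fibrinogen gene FGA had 0 counts, and FGB 4. Other genes of this kind were low but present. Over the 6 libraries FGG had 89 counts, SAA1 132, SAA2 83.0 and SERPINA3 67.4, and these were tested and did not pass. FGG had the largest log2 fold change of the list, 0.53 ± 0.37 (SE). HP, with 40.1 counts, was not tested.

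Of 21 transcription factors and cofactors known to act on the IL6, IL11 and LIF genes, all tested, 5 passed as higher, 1 passed as lower and 15 did not pass, where 2.76% of all tested genes passed as higher and 4.06% as lower. The list's median was 0.02, against 0.01 over all tested genes. The list was drawn up with the differences of FOS and EGR1 in these libraries known, so its count and their p-values are not independent evidence. FOS, an AP-1 subunit, was at 4.56 ± 0.787 CPM in SW-138 cells, against 1.10 ± 0.376 CPM in SW-113 cells (2.07 ± 0.25, SE; edgeR, Benjamini-Hochberg adjusted p = 0.00185). FOSB, a related subunit, was at 1.34 ± 0.137 CPM in SW-138 cells, against 0.237 ± 0.0397 CPM in SW-113 cells (2.48 ± 0.30, SE; edgeR, Benjamini-Hochberg adjusted p = 0.00215). FOS rested on 35 to 215 counts a library and FOSB on 8 to 62. The other AP-1 genes of the list were not past the threshold: FOSL2 (0.02), FOSL1 (0.01), JUN (0.21) and JUND (-0.22). They were more abundant, at 258, 184, 126 and 45.4 CPM in SW-138 cells, against 254, 183, 109 and 52.8 CPM in SW-113 cells. JUN and JUND were among 11 of the 21 listed genes without overlap between the compounds, where 27.9% of all tested genes had none. The zinc finger factor EGR1 was higher by 0.98 ± 0.12 and the ETS family factor ETS1 by 0.34 ± 0.04 (edgeR, Benjamini-Hochberg adjusted p = 0.00192 and 0.00406). Without SW-138 replicate 2 there were 7 higher and 2 lower, and without SW-113 replicate 2 or 3 there were 4 higher and 0 lower. Of the NF-kB pathway, 2 genes of the inhibitor family passed in opposite directions and were named after their values were seen. NFKBIZ, a nuclear cofactor of NF-kB needed for IL6 induction in mouse macrophages, was at 23.5 ± 0.618 CPM in SW-138 cells, against 16.9 ± 2.23 CPM in SW-113 cells. NFKBIA, which holds NF-kB in the cytoplasm, was at 12.8 ± 0.438 CPM in SW-138 cells, against 16.5 ± 0.860 CPM in SW-113 cells. NFKBIZ did not pass without SW-138 replicate 3 (0.47) or SW-113 replicate 2 (0.47) or 3 (0.39). NFKBIA did not pass without SW-138 replicate 1 (-0.33) or SW-113 replicate 2 (-0.35) or 3 (-0.33). The NF-kB subunit genes RELA (-0.10) and NFKB1 (0.06), the C/EBP beta gene CEBPB (-0.07), CREB1 (-0.02) and SMAD3 (-0.09), given here for their known roles, were not past the threshold.

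Of 16 regulators of cytokine mRNA decay 1 passed as higher and 0 as lower, where 2.76% of all tested genes passed as higher and 4.06% as lower. At an unadjusted p under 0.05 there were 2 higher and 2 lower, where 10% and 12.3% of all tested genes were. DESeq2 called 1 higher and 1 lower, and limma-voom 1 higher and 0 lower. In 7 of the 16 the compounds did not overlap, where 27.9% of all tested genes did not. ZFP36L1, which binds AU-rich elements such as those shown above, was at 229 ± 1.51 CPM in SW-138 cells, against 201 ± 1.94 CPM in SW-113 cells (0.19 ± 0.04, SE; edgeR, Benjamini-Hochberg adjusted p = 0.0370). Of the 6 fits that left out a library it passed in the fit without SW-138 replicate 2 and in no other (0.18 to 0.19). Its relative ZFP36L2 ran the other way without overlap, at 24.6 CPM in SW-138 cells, against 27.4 CPM in SW-113 cells (-0.15 ± 0.06, SE). CNOT7 had the largest difference of the list, -0.20 ± 0.06 (SE). ZFP36 itself, counted among the STAT3 targets, was at 0.37 ± 0.10 (SE). With edgeR these were not past the threshold. The endonuclease gene ZC3H12A (Regnase-1) was at -0.15 ± 0.10 and the RNA-binding protein gene ELAVL1 at -0.07 ± 0.04. The list's median was 0.00, against 0.01 over all tested genes.

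Of 16 other interleukins and colony-stimulating factors 10 were tested and none passed with edgeR, while DESeq2 called 1 and limma-voom 0. Of all tested genes 2.76% passed as higher and 4.06% as lower with edgeR, and DESeq2 called 4.67% and 5.53% of genes with an adjusted p. Of the 10 genes 2 were higher and 1 was lower at an unadjusted p under 0.05, where 10% and 12.3% of all tested genes were. Without SW-113 replicate 2 edgeR called 1 of the 10. IL1B, a major inflammatory cytokine and per kilobase the most abundant of them, was at 212 CPM in SW-138 cells, against 222 CPM in SW-113 cells (-0.06 ± 0.04, SE). IL1A was at 10.3 CPM in SW-138 cells, against 8.09 CPM in SW-113 cells (0.35 ± 0.10, SE). The neutrophil chemokine CXCL8 was at 10.8 CPM in SW-138 cells, against 9.01 CPM in SW-113 cells (0.27 ± 0.10, SE). IL32 ran the other way, at 4.19 CPM in SW-138 cells, against 5.31 CPM in SW-113 cells (-0.35 ± 0.13, SE). IL1A, CXCL8 and IL32 were the genes at that unadjusted p and were named after their values were seen. CSF1 was at 116 CPM in SW-138 cells, against 129 CPM in SW-113 cells (-0.15 ± 0.12, SE). The list's median was -0.09, against 0.01 over all tested genes.

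**Figure D5:**
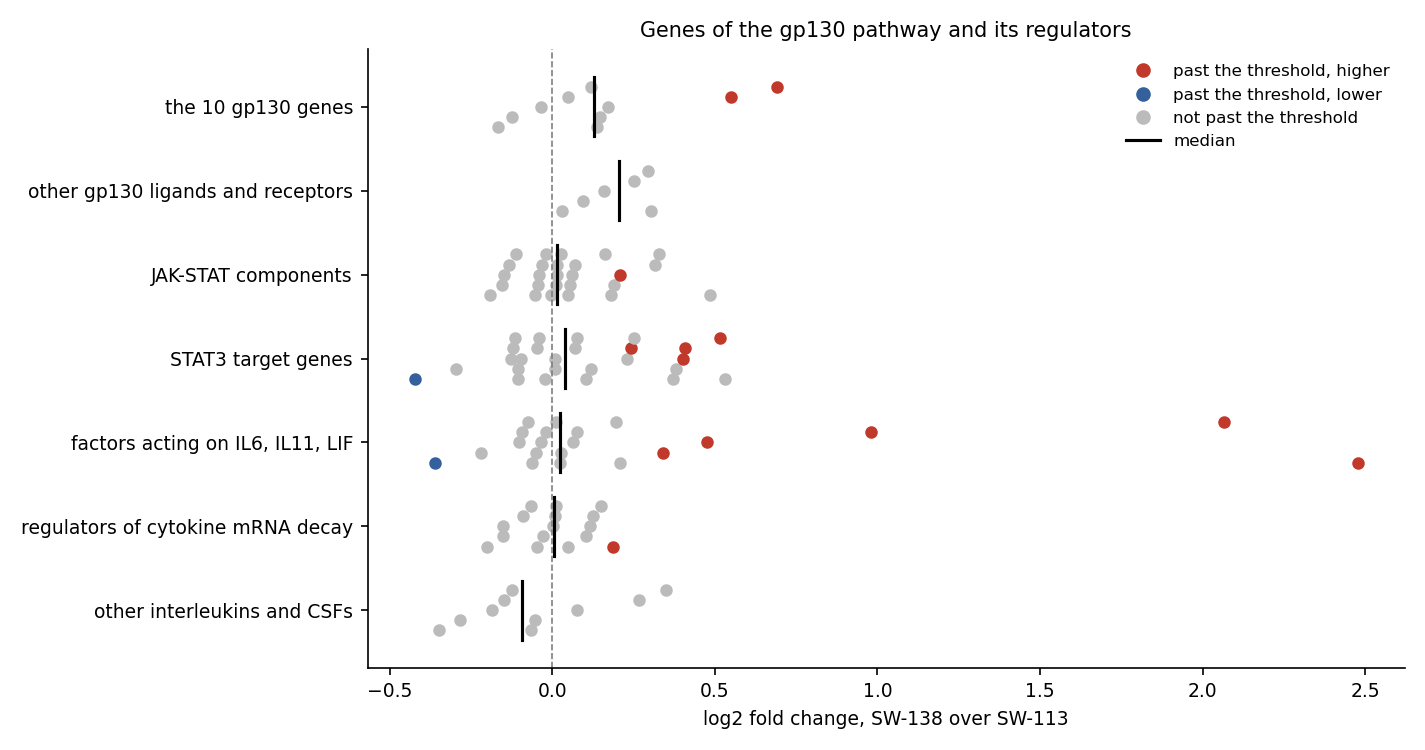
Log2 fold change of SW-138 over SW-113 for the 10 gp130 genes and for 6 lists of related genes, 1 point a gene, colored by edgeR call, with black lines at list medians. FOSB (2.48) and FOS (2.07) lie far to the right of the other points, and most genes of the JAK-STAT, STAT3 target and mRNA decay lists lie near 0.

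For each of IL6, IL11 and LIF the 3 genes with the most similar pattern were found by Pearson's r of log2(CPM + 0.1) over the 6 libraries, among 13602 genes at a mean of at least 1 CPM. For IL6 they were NFIL3, C1GALT1 and STK39, each at 0.994, and for IL11 TUFT1 (0.996), NRF1 (0.996) and TMEM59 (0.994). For LIF they were ABCB8 (0.993), FBXL19 (0.986) and SNCAIP (0.984). With 6 libraries many genes reach such values: 180 genes were above 0.95 with IL6, 127 with IL11 and 24 with LIF. The points are the same 6 libraries in 2 compound groups. Since the IL6 and IL11 libraries separate by compound, genes chosen for their likeness to them separate too, and no count of calls is given for them.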

How the data were processed

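Total RNA depleted of ribosomal RNA was sequenced, and the authors deposited 1 table of expected counts per gene, with a column per library and 0 other sample columns. Such estimated counts can be fractional and were rounded here. RSEM 1.3.3, Bowtie2 2.5.4, Trimmomatic 0.39, DESeq2 1.42.0 and GRCh38 are named, with no role or order, per the submitters' processing notes. The annotation version, filters and strand handling are not given in the sources used here. RSEM divides reads shared between similar genes, so such values are less certain.

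Genes were kept by filterByExpr (16905 of 60675), scaled by TMM factors and tested with edgeR 4.0.16 (quasi-likelihood, SW-138 minus SW-113, no block, Benjamini-Hochberg over all tested genes). Standard errors came from limma-voom (limma 3.58.1, R 4.3.3), and 95% intervals were centred on the edgeR estimates and are unadjusted. The fits were tested on simulated data. Coordinates, transcript lengths and untranslated regions came from GENCODE 29 (GRCh38), promoter windows from RefSeq (GRCh38.p14).

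The 10 genes and the 6 lists, compiled from textbook knowledge, were chosen with earlier results of these data known. In a list, up to 4 genes past the threshold with the smallest p were named, and others where stated. The levels of 1 listed gene, counted in its list, are not reported here. Alternatives were other scalings, filters and tests, a replicate block, leaving out each library, leaving out stable noncoding and mitochondrial genes, and removing length and GC trends.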

Additional observations from a re-analysis of the deposited data

How the results depend on the processing

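Over all genes 1153 passed, 2060 with genes kept at 1 count in 1 library, 2363 with the replicate block and 303 to 1616 without single libraries (458 to 605 for each library other than SW-138 replicate 2, the highest, and SW-113 replicate 3, the lowest). Of the 10 gp130 genes 2 passed, 1 when only genes averaging 5 CPM were kept, so that IL6 was not tested, and 1 to 2 without single libraries. The JAK-STAT list had 1, with 3 by total count alone, 2 with genes kept at 1 count in 1 library or averaging 5 CPM or with the replicate block, and 0 to 1 without single libraries. The STAT3 target list had 5, with 8 at 1 count in 1 library, 8 with the replicate block and 3 to 8 without single libraries. The mRNA decay list had 1, with 2 at 1 count in 1 library, by DESeq2, with the replicate block or with length and GC trends removed, and 0 to 2 without single libraries. The other interleukins had 0, with 1 by total count alone, at 1 count in 1 library, averaging 5 CPM, by DESeq2, with the replicate block or with trends removed, and 0 to 1 without single libraries. The factors acting on the cytokine genes had 6, and 4 to 9 without single libraries. The cause was not tested. LIF reversed to 0.0285 by total count alone and to 0.0503 without SW-138 replicate 2 or 0.0511 without SW-113 replicate 1 (range -0.127 to 0.0511 without single libraries), and IL11RA reversed to -0.0393 without SW-138 replicate 3. With total count alone the median log2 fold change of all genes was 0.07, against 0.01. DESeq2 gave no adjusted p for FOSB.

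Replicate numbers paired the libraries in part at most. Deviations from the group means correlated at 0.05, 0.21 and 0.05 for same-numbered libraries 1, 2 and 3. The value for replicate 2 was the highest of all pairs, and its pairs with other numbers were at -0.14 to -0.08. SW-138 replicate 1 correlated best with SW-113 replicate 3 (0.09), and SW-138 replicate 3 alike with SW-113 replicates 1 and 3 (0.05 each). The labels name no batch, and a shared batch of same-numbered libraries was not tested. With the replicate block 2363 of all tested genes passed, against 1153 in the main fit. IL6 (0.69) and IL11 (0.55) were past the threshold with the block and the other 8 gp130 genes were not. Depth limits IL11RA, with 67.1 to 103 counts a library with SW-138 and 79.98 to 110.2 with SW-113, and IL6. Among the listed factors it also limits FOSB, with 183 counts over the 6 libraries and as few as 8 in a library, and FOS, with as few as 35.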
